A study of Mus musculus with 24 samples.

Results

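Class switch recombination lets an activated B cell exchange the constant region of its antibody heavy chain, for example from IgM to IgG1, while the antigen-binding part is kept. The enzyme AID starts it by turning cytosines of the switch regions into uracils, base excision and mismatch repair proteins convert these into DNA breaks, and the broken ends are shielded from trimming until they are joined. Described here are 8 genes of this machinery, chosen by name from the 27179 genes of the deposited tables: Ung, Apex1 and Apex2 of base excision, Msh6 and Exo1 of mismatch repair, Trp53bp1 and Rif1, which protect the broken ends, and Batf, a transcription factor of the AP-1 family that switching needs. AID's own gene is not among them.

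RNA of lymph node B cells from C57BL/6 mice was sequenced in 24 libraries, with 2 libraries per genotype and stage. The 3 stages were naive cells and cells after 48 h of culture with CD40L+IL-4 or LPS+IL-4, stimuli that drive division and switching. Across its 4 genotypes the study asked what mature B cells lose without PU.1 (encoded by Spi1) and SpiB, related Ets-family transcription factors that recognize the same DNA sequence. Control cells were Cd23T/+, carrying a Cre transgene under Cd23 regulatory sequences, which acts from the transitional B cell stage. PU.1 cKO cells had floxed Spi1 alleles with that transgene (Spi1fl/fl Cd23T/+). SpiB KO cells were Spi1fl/fl Cd23+/+ Spib-/-, so they held floxed Spi1 but no Cre. PU.1 SpiB DKO cells, called the double mutant below, combined all of these alleles (Spi1fl/fl Cd23T/+ Spib-/-), and by the study's account their naive cells still held part of the floxed Spi1 exon. Cells for RNA were sorted as CD3- B220+ CD138-, and ages were matched within experiments and are not in the labels.

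Counts on genes totalled 14231188 to 18194629 per library in naive cells, 9598674 to 61640683 (median 10070288) after CD40L+IL-4 and 22757630 to 73658850 (median 38312682) after LPS+IL-4. Levels are CPM, a gene's counts scaled to a common library size with TMM factors over all 24 libraries. The B cell gene Cd79a was at 433 CPM or more in each library, and Cd3e stayed at or below 0.680 CPM, Csf1r at or below 1.08 CPM. Other markers of T cells, plasmacytoid dendritic cells and macrophages were higher in some naive libraries. They reached 283 CPM for Cd8a, 104 for Cd4, 284 for Siglech, 228 for Ccr9 and 59.0 for Cd68. Emr1, a macrophage marker, reached 41.3 CPM after CD40L+IL-4. Spib was at 1585 and 1395 CPM in naive control and 86.1 to 108 CPM in both naive genotypes with Spib-/- alleles, and at most 36.0 CPM there after culture. Spi1 reads outside the deleted exon are still counted, and Spi1 was 167 and 179 CPM in naive control, 65.3 and 58.7 in PU.1 cKO and 109 and 118 for the double mutant. After CD40L+IL-4 it was 83.2 and 105 CPM in control and 31.3 and 24.9 CPM in the double mutant, and after LPS+IL-4 69.4 and 60.3 CPM in control and 59.0 and 54.4 CPM in the double mutant.

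Differential expression (DE) took the thresholds of the study, namely an adjusted p under 0.15, a change over 1.5-fold and a mean log2 RPKM (reads per kilobase of exon, depth-scaled) above 0. The test was edgeR's quasi-likelihood test within each stage, adjusted by Benjamini-Hochberg over 12500 genes in naive cells, 12721 after CD40L+IL-4 and 12445 after LPS+IL-4. All 8 genes passed the filter on low counts in each stage. "Rose" and "fell" are used below of an adjusted p under 0.15, whatever the fold. With 2 libraries a group an exact permutation test of a single gene cannot go below p = 0.333, so the spread had to be estimated across genes. In bulk RNA, fewer cells of a type and less RNA per cell cannot be told apart.

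Batf, Apex1, Msh6 and Trp53bp1 are the genes that were DE in a mutant against control below. The bases just before the RefSeq starts of the first 3 are shown for that reason, while those of Trp53bp1 are not shown. The build is GRCm38.p6, all 3 stretches are on the + strand, and capitals mark the Ets core GGAA or its reverse complement. The Batf stretch is chr12:85686470-85686719, the Msh6 stretch is chr17:87974800-87975049 and the Apex1 stretch, shortened where the neighbouring gene Osgep begins, is chr14:50924894-50924948.
Batf: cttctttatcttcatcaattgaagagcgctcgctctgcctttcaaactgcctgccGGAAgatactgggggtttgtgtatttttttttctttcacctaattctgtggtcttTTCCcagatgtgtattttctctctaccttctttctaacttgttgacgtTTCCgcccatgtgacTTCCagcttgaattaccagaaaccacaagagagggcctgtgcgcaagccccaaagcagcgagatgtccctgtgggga
Apex1: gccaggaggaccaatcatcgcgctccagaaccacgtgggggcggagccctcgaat
Msh6: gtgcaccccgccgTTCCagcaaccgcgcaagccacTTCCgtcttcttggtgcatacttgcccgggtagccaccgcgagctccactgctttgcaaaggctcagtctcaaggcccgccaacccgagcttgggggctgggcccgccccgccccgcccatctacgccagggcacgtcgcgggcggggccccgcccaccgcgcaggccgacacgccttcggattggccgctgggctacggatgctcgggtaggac
The Batf stretch held 4 GGAA cores, 1 forward and 3 on the reverse strand, the Msh6 stretch held 2 on the reverse strand and the Apex1 stretch none. The search covered both strands of the 300-base RefSeq promoter window (250 bases before the start and 50 after), which the table gives for 5 of the 8 genes. In that window GGAA occurred 4 times for Batf and for Trp53bp1, 3 times for Msh6, 2 times for Ung and 1 time for Apex1. This core is common: 96.0% of all 32851 promoter windows hold it. None of the 5 windows held GAGGAAGT, an extended PU.1 and SpiB type site (3.20% of all windows), TTTNGCGC, an E2F type site (1.38%), or TGANTCA, an AP-1 and BATF type site (7.81%).

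In control cells, most of this machinery was low in naive cells and high after either culture. On the log2 RPKM scale, which corrects for gene length, Batf was the highest of the 8 genes in each stage, at 4.01 in naive cells, 6.23 after CD40L+IL-4 and 7.67 after LPS+IL-4. The CD40L+IL-4 libraries were deposited in a table of their own, so these log2 RPKM levels are ordered within a stage only. Exo1 was the lowest in naive cells at -1.97. In naive control cells no neighbours in the order Batf, Msh6, Apex1, Ung, Apex2, Trp53bp1, Rif1, Exo1 overlapped between their 2 libraries. After CD40L+IL-4 Msh6, Ung and Apex1 (5.50, 5.33 and 5.30) could not be ordered beyond the spread of their libraries. Rif1, Exo1, Trp53bp1 and Apex2 (3.26 to 2.56) overlapped between neighbours, while both Rif1 and both Exo1 libraries lay above those of Apex2.

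Exo1, the exonuclease that widens a nick or mismatch into a gap, had the largest difference of the 8 genes. It was at 1.73 and 0.805 CPM in naive control (23 and 11 reads), 47.3 and 42.7 CPM after CD40L+IL-4 and 81.3 and 90.9 CPM after LPS+IL-4. The 3 stages did not overlap, and the log2 fold changes over naive were 5.12 (SE 0.28, edgeR adjusted p = 1.1e-11) and 6.06 (SE 0.28, adjusted p = 7.4e-13). Ung, the glycosylase that removes the uracils AID leaves, was at 18.6 and 14.9 CPM in naive control, 88.1 and 87.4 after CD40L+IL-4 and 102 and 99.7 after LPS+IL-4. Its log2 fold changes over naive were 2.37 and 2.56 (SE 0.18 each). The Ung cultures differed from each other by 0.20 (SE 0.16, edgeR adjusted p = 0.33).

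Batf rose the most from the CD40L+IL-4 to the LPS+IL-4 culture among these genes. Its control libraries were at 14.3 and 13.0 CPM in naive cells, 65.8 and 76.0 after CD40L+IL-4 and 166 and 199.8 after LPS+IL-4, with no overlap between stages. The log2 fold changes were 2.35 (SE 0.19) and 3.72 (SE 0.20) over naive and 1.37 (SE 0.17, edgeR adjusted p = 3.7e-06) between the cultures. Apex1, the main endonuclease that cuts the DNA backbone where a base has been removed, rose by 1.96 (SE 0.21) with CD40L+IL-4 and by 2.74 (SE 0.21) with LPS+IL-4. Msh6, the subunit of the mismatch sensor that recognizes a uracil paired with guanine, rose by 1.76 and 2.10 (SE 0.13 each), and Rif1, the partner of 53BP1 in blocking end trimming, by 1.72 (SE 0.23) and 2.91 (SE 0.24).

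The other 2 genes moved least. Apex2, a weaker relative of Apex1, was at 12.1 and 12.4 CPM in naive control, 12.7 and 11.0 after CD40L+IL-4 and 17.9 and 19.6 after LPS+IL-4. Trp53bp1, which encodes 53BP1, was at 40.3 and 50.5 CPM in naive control, 67.5 and 43.7 after CD40L+IL-4, where its libraries overlapped those of naive cells, and 78.3 and 76.1 after LPS+IL-4. In LPS+IL-4 against naive Apex2 rose by 0.59 (SE 0.17, edgeR adjusted p = 0.0036), just past the 1.5-fold threshold, and Trp53bp1 by 0.74 (SE 0.16, adjusted p = 0.00033).

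Counted together, 6 of the 8 genes were DE and higher in CD40L+IL-4 than in naive control cells, against 18.5% of all 13684 genes tested, and all 8 in LPS+IL-4, against 25.6%. Between the cultures, 5 (Batf, Rif1, Exo1, Apex1 and Apex2) were DE and higher with LPS+IL-4, against 16.6% of genes. The median log2 fold changes of the 8 genes were 1.86, 2.65 and 0.72, and those of all genes were 0, 0.01 and 0. Of 25 DNA replication and division genes (MCM helicase subunits, Pcna, Mki67 and the like), 24 were DE and higher in each culture than in naive cells, with medians of 3.03 and 3.35, and the part of division in the values above was not tested. The call of Apex2 was lost under limma's voom, RLE scaling and DESeq2, where its change was 0.49, 0.56 and 0.56, and without naive Control replicate 1 (0.57) or LPS+IL-4 Control replicate 2 (0.53), and that of Trp53bp1 without naive Control replicate 1 (0.58). Stage and library preparation cannot be told apart.

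**Figure D1:**
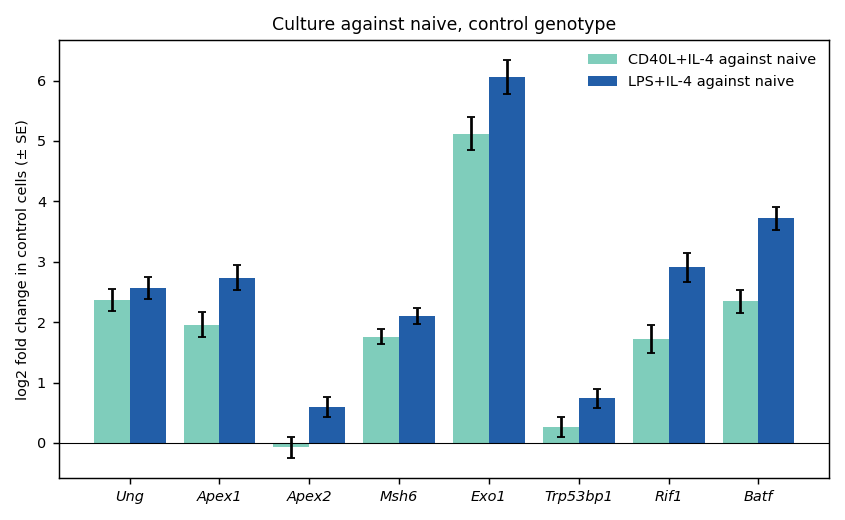
Log2 fold change of each of the 8 genes in control cells after 48 h of culture against naive control cells, from the edgeR fit of all 24 libraries (bars, with SE as error bars). Exo1 is the tallest pair at 5.12 and 6.06, and the CD40L+IL-4 bars of Apex2 (-0.07) and Trp53bp1 (0.26) are not past the threshold.

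The naive cells of the mutants held different amounts of a mismatch repair, a base excision and an end protection transcript. Msh6 was high in 1 genotype alone: PU.1 cKO libraries were at 99.5 and 108 CPM, control at 51.3 and 60.0, SpiB KO at 57.8 and 61.2 and PU.1 SpiB DKO at 65.4 and 61.6. The PU.1 cKO pair lay above every other naive library. Msh6 rose in PU.1 cKO by 0.83 on the log2 scale (SE 0.13, edgeR adjusted p = 0.0055) and was lower in the double mutant than in PU.1 cKO cells by 0.67 (-0.67, SE 0.13, adjusted p = 0.0082). Both calls held without any 1 library. The interaction term, the departure of the double mutant from the sum of the single-mutant effects, was -0.73 (SE 0.18, edgeR adjusted p = 0.18) and did not pass. It passed under 4 other settings, with adjusted p from 0.024 to 0.069. Without naive Control replicate 1 it was -0.60, and without replicate 2 -0.88. The naive double mutant kept part of the floxed Spi1 exon and SpiB KO cells carried no Cre, so the term does not compare full losses alone.

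Apex1 was lowest in naive control cells, at 14.9 and 12.4 CPM. PU.1 cKO libraries were at 18.9 and 18.6 CPM, SpiB KO at 17.5 and 18.3 and PU.1 SpiB DKO at 23.1 and 21.2. No mutant pair overlapped the control pair. The change reached 0.68 (SE 0.15, edgeR adjusted p = 0.013) in the double mutant, and was 0.40 (SE 0.15, adjusted p = 0.155) in PU.1 cKO and 0.36 (SE 0.15, adjusted p = 0.22) in SpiB KO cells. Trp53bp1 was highest in control cells. Its libraries were at 40.3 and 50.5 CPM in control, 34.7 and 36.3 for PU.1 cKO, 30.0 and 32.8 CPM for SpiB KO and 25.8 and 28.2 for the double mutant, each mutant pair below control. It fell by 0.78 in the double mutant (-0.78, SE 0.16, edgeR adjusted p = 0.0078), by 0.57 in SpiB KO (-0.57, SE 0.15, adjusted p = 0.069) and by 0.42 in PU.1 cKO (-0.42, SE 0.15, adjusted p = 0.14), and only the first passed the 1.5-fold threshold. Without naive Control replicate 2 the PU.1 SpiB DKO changes of Apex1 (0.58, adjusted p = 0.065) and Trp53bp1 (-0.57, adjusted p = 0.039) came under that fold.

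Ung was at 18.6 and 14.9 CPM in naive control, 19.3 and 21.9 for PU.1 cKO, 23.5 and 23.3 CPM for SpiB KO and 25.1 and 22.9 for the double mutant. Every mutant library lay above both control libraries. It rose by 0.50 (SE 0.16, edgeR adjusted p = 0.051) in the double mutant and by 0.46 (SE 0.16, adjusted p = 0.13) in SpiB KO cells, both under 1.5-fold. Exo1 was read 11 to 35 times per naive library, its changes had SE of 0.47 to 0.51, and none passed. Batf changed in naive cells by -0.16 (PU.1 cKO), 0.31 (SpiB KO) and 0.29 (PU.1 SpiB DKO), with edgeR adjusted p from 0.28 to 0.64, and Apex2 and Rif1 did not pass in the naive comparisons fitted without a replicate block.

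In all, 1 of the 8 genes was DE in naive PU.1 cKO (8.40% of all genes tested), 0 in SpiB KO (6.35%) and 2 for the double mutant (14.1%). By the adjusted p alone the counts were 2 (17.2% of genes), 2 (12.6%) and 3 (34.8%). Against PU.1 cKO, 1 gene was DE in the double mutant (7.21%), and against SpiB KO 0 (1.97%), with 0 of 8 at an unadjusted edgeR p under 0.05 and 0 by DESeq2 and voom. The 0 in SpiB KO stood beside 3 of 8 at an unadjusted edgeR p under 0.05 and 0 by the other 2 tools. No interaction passed (0.936%), against 1 at an unadjusted p under 0.05, 1 by DESeq2 and 0 by voom, all Msh6. Genes of plasmacytoid dendritic cells, which also carry B220, differed between naive groups: the summed level of 8 such genes was 1921 to 2231 CPM in control, 1683 to 1791 for PU.1 cKO, 3486 to 4322 for SpiB KO and 3637 to 4108 for the double mutant, and their defining marker Siglech was at 61.6 and 24.6 CPM in control and 284 and 246 CPM in the double mutant. The sum of 10 T cell genes was 76.1 to 127 CPM in control and 611 to 615 in the double mutant, with Cd4 at 84.2 to 104 and Cd8a at 251 to 283 CPM in the double mutant and Cd3e at most 0.680 CPM. That of 9 macrophage genes was 14.4 to 27.3 CPM in control and 77.9 to 78.5 CPM in the double mutant. Csf1r was near 0, while Cd68 was at 5.93 to 59.0 CPM over the naive libraries. The 10 B cell genes summed to 44715 to 47537 CPM in control, 37349 to 38381 for PU.1 cKO and 40252 to 41487 for SpiB KO. In the double mutant they summed to 31592 to 32568 CPM, with 2 of 10 DE and lower and 0 higher. The part of these lists in the results was not tested, and Spi1 was reduced less in the double mutant than in PU.1 cKO naive cells (above).

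**Figure D2:**
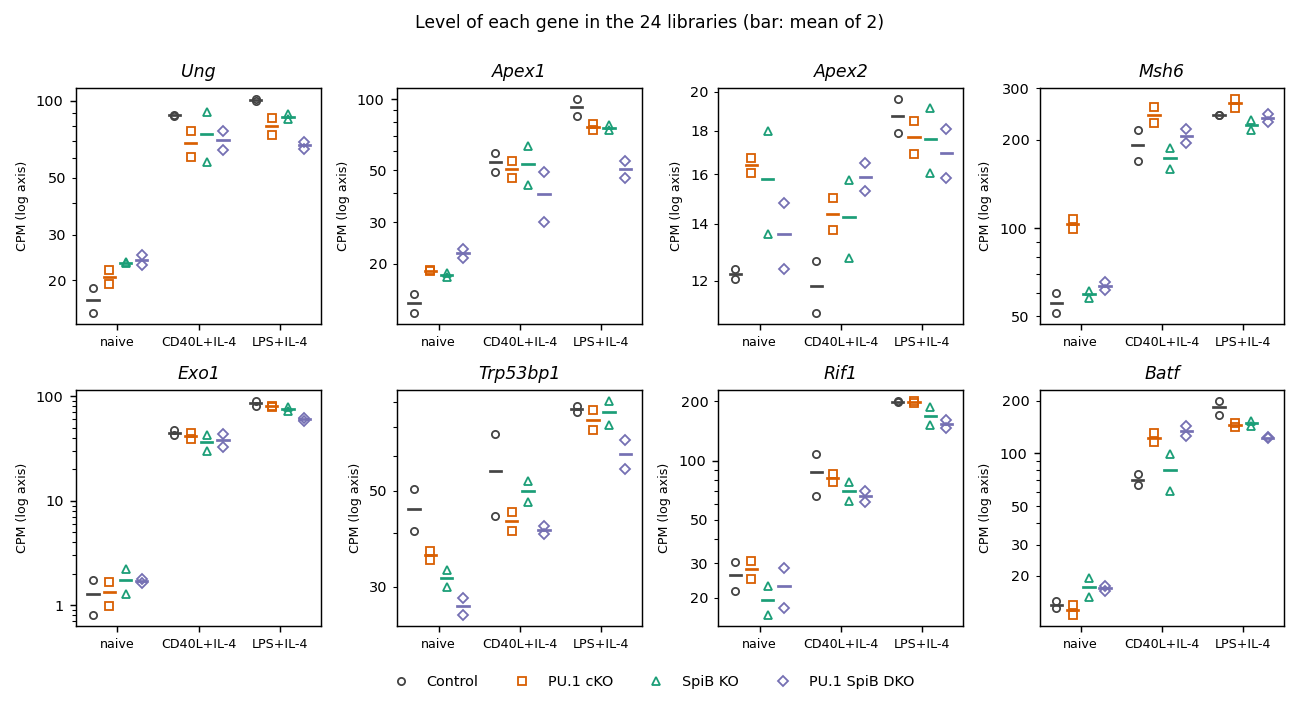
Level in CPM (log axis, scaled by panel) of each of the 8 genes in every library, by stage and genotype, with a bar at the mean of each pair. The naive PU.1 cKO libraries of Msh6 (99.5 and 108 CPM) stand above the other naive libraries, and the Batf pairs of both genotypes without PU.1 lie above control after CD40L+IL-4. After LPS+IL-4 the Batf pairs of every mutant genotype, SpiB KO included, lie below control.

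After CD40L+IL-4 the single gene of the 8 that passed the thresholds between genotypes was Batf. Control libraries were at 65.8 and 76.0 CPM, PU.1 cKO at 116 and 130.2, SpiB KO at 60.8 and 98.8 and PU.1 SpiB DKO at 126 and 144. Both genotypes without PU.1 lay above every control and SpiB KO library, and the SpiB KO pair spanned the control pair. Batf rose by 0.80 in PU.1 cKO (SE 0.21, edgeR adjusted p = 0.042) and by 0.94 for the double mutant (SE 0.22, adjusted p = 0.016), which is 1.74-fold and 1.92-fold. It was higher in the double mutant than in SpiB KO cells by 0.77 (SE 0.21, edgeR adjusted p = 0.045), and the difference between the double mutant and PU.1 cKO was 0.14 (SE 0.21, adjusted p = 0.84). The PU.1 SpiB DKO call held without any 1 library. The PU.1 cKO call was lost without Control replicate 1 (0.70, adjusted p = 0.20) or without PU.1 cKO replicate 2 (0.73, adjusted p = 0.22), the library of 61640683 counts, and the call against SpiB KO without SpiB KO replicate 1 (0.46, adjusted p = 0.29) or PU.1 SpiB DKO replicate 2 (0.67, adjusted p = 0.22).

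No base excision gene passed the test in this culture. Apex1 was at 59.1 and 49.0 CPM in control and 30.1 and 49.0 for the double mutant, a pair whose difference was larger than its distance from control (-0.44, SE 0.24, edgeR adjusted p = 0.27). Replicate 1, the lower of that pair, had 6.64% of its counts on the ribosomal RNA gene Rn45s against 0.464% in replicate 2. Other pairs were uneven too, with 3.62% and 0.185% in naive Control replicates 1 and 2. The LPS+IL-4 PU.1 cKO pair had 0.827% and 3.26%. The part of this gene in the values was not tested. Without replicate 2 of the double mutant Apex1 was DE and lower (-0.81, adjusted p = 0.10), and without replicate 1 its change was -0.13 (adjusted p = 0.79). Ung was at 88.1 and 87.4 CPM in control and 64.3 and 76.1 for the double mutant, without overlap, at -0.31 (SE 0.21, adjusted p = 0.37). Apex2 was at 12.7 and 11.0 CPM in control and 16.5 and 15.3 for the double mutant, at 0.44 (SE 0.20, adjusted p = 0.17). Msh6 was at 258 and 228 CPM in PU.1 cKO, above every other library of this culture, and at 215 and 170 CPM in control. Its change in PU.1 cKO was 0.34 (SE 0.17, edgeR adjusted p = 0.27) and did not pass. The control libraries disagreed for the end protection genes: Trp53bp1 was at 67.5 and 43.7 CPM and Rif1 at 109 and 66.1 CPM. Without Control replicate 2, the lower of each pair, Trp53bp1 was DE and lower in PU.1 cKO (-0.65) and the double mutant (-0.72) and Rif1 in the double mutant (-0.70), which made 5 calls against control in place of 2.

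Of the 8 genes 1 was DE in PU.1 cKO (9.36% of all genes tested), 0 in SpiB KO (0.110%) and 1 for the double mutant (13.7%), where the adjusted p alone also passed 1 of 8 (25.2% of genes). The double mutant differed at 0 genes from PU.1 cKO (3.01%) and at 1 from SpiB KO cells (11.4%), and 0 interactions passed (1.17%). In each of the last comparisons with 0 calls edgeR also gave 0 of 8 at an unadjusted p under 0.05, and DESeq2 and voom gave 0. The median log2 fold change of the 8 genes in the double mutant against control was -0.27, and that of all genes was 0.00. Plasma cell genes were also higher in both genotypes without PU.1: the summed level of 8 such genes was 1532 to 1691 CPM in control, 2385 to 2576 for PU.1 cKO, 1430 to 2035 for SpiB KO and 3011 to 3153 for the double mutant, and their part in the Batf result was not tested. The 10 T cell genes summed to 90.7 to 92.9 CPM in control, 105 to 109 for PU.1 cKO and 231 to 244 for the double mutant, and the 9 macrophage genes to 43.6 to 57.8, 8.77 to 10.1 and 8.61 to 11.5 CPM, also with their part not tested. The replication genes overlapped, at 6226 to 7814 CPM in control and 5992 to 6869 CPM in the double mutant. B cell genes summed to 27774 to 34876 CPM in control and 25728 to 29304 CPM in the double mutant. Of these, 5 of 10 were DE and lower and 0 higher, and their part was not tested.

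After LPS+IL-4 Batf was no longer higher in the mutants, and most of the machinery was lower in the double mutant than in control cells. Apex1 fell the most of the 8 genes. It was at 84.8 and 100.2 CPM in control, 73.8 and 78.6 for PU.1 cKO, 77.3 and 74.1 CPM for SpiB KO and 46.5 and 54.7 for the double mutant. The double mutant pair lay below all other libraries of this culture. Apex1 fell by 0.79 against control (-0.79, SE 0.10, edgeR adjusted p = 0.00051), a call that held in every setting tried, by 0.54 against PU.1 cKO (-0.54, SE 0.10, adjusted p = 0.0089) and by 0.52 against SpiB KO cells (-0.52, SE 0.10, adjusted p = 0.0088), the last 2 under 1.5-fold.

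The other falls were smaller than 1.5-fold. Ung was at 102 and 99.7 CPM in control and 69.3 and 64.9 for the double mutant, with 85.3 and 73.6 in PU.1 cKO and 88.7 and 84.7 in SpiB KO. All mutant libraries lay below control, and Ung fell by 0.50 in the double mutant (-0.50, SE 0.09, edgeR adjusted p = 0.0025). Its fall in PU.1 cKO cells was smaller (-0.31, SE 0.09, adjusted p = 0.051). Batf was at 166 and 199.8 CPM in control, 140.5 and 149 for PU.1 cKO, 153 and 144 CPM for SpiB KO and 123 and 122 for the double mutant. The mutant pairs again lay below control, and Batf fell by 0.49 in the double mutant (-0.49, SE 0.09, edgeR adjusted p = 0.0033). Its fall in PU.1 cKO cells was smaller (-0.31, SE 0.09, adjusted p = 0.064).

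Exo1 libraries of the double mutant lay below all others of this culture, at 62.5 and 57.9 CPM against 81.3 and 90.9 in control, 79.6 and 80.5 for PU.1 cKO and 79.6 and 72.1 in SpiB KO cells. It fell by 0.43 against control (-0.43, SE 0.09, edgeR adjusted p = 0.0043), by 0.36 against PU.1 cKO (-0.36, adjusted p = 0.020) and by 0.27 against SpiB KO cells (-0.27, adjusted p = 0.056). Of the end protection genes, Rif1 was at 201 and 197 CPM in control and 159.8 and 146 for the double mutant (-0.30, SE 0.10, edgeR adjusted p = 0.048), and it fell against PU.1 cKO too (-0.32, adjusted p = 0.050). Trp53bp1 was at 78.3 and 76.1 CPM in control and 65.3 and 56.2 for the double mutant (-0.26, SE 0.10, adjusted p = 0.075). Against SpiB KO cells, Ung (-0.31, edgeR adjusted p = 0.041) and Trp53bp1 (-0.26, adjusted p = 0.12) were the other 2 genes that fell. Msh6 and Apex2 did not pass. Msh6 was at 243 CPM in both control libraries and 245 and 229.7 for the double mutant (0.05, SE 0.08, edgeR adjusted p = 0.67). Apex2 was at 17.9 and 19.6 against 15.8 and 18.1 CPM (-0.06, SE 0.13, adjusted p = 0.74). The PU.1 cKO pair of Msh6, at 276 and 257 CPM, lay above every other library of this culture (0.16, SE 0.08, adjusted p = 0.26).

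By the adjusted p alone, then, 6 of the 8 genes fell in the double mutant against control, while 22.4% of all genes tested fell by that rule. The same counts were 3 of 8 against PU.1 cKO (16.8% of genes) and 4 of 8 against SpiB KO cells (13.6%), all lower. Against control, 2 of 8 passed in PU.1 cKO (19.0%) and 0 of 8 in SpiB KO cells (5.13%), where 2 had an unadjusted edgeR p under 0.05. With the fold and level thresholds added, 1 gene was DE in the double mutant (13.6%), 0 in PU.1 cKO (6.67%), 0 in SpiB KO cells (2.29%), and 0 in the double mutant against PU.1 cKO (8.10%) or SpiB KO (8.09%). None of the 8 interactions passed (1.48%), and 0 had an unadjusted edgeR p under 0.05. DESeq2 and voom also gave 0 in each comparison with 0 DE genes. Unadjusted, 3 of 8 were under 0.05 in PU.1 cKO against control, 3 against PU.1 cKO and 5 against SpiB KO. The median log2 fold change of the 8 genes in the double mutant against control was -0.37, and that of all genes was 0.01.

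In this culture the replicate numbers paired the libraries. Fitting the number as a block raised the counts by the adjusted p alone, except that of the double mutant against control. With the block, 4 of 8 passed in PU.1 cKO (29.8% of all genes), 4 of 8 in SpiB KO (14.2%) and 6 of 8 for the double mutant against control (58.0%). The double mutant had 6 of 8 against PU.1 cKO (50.1%) and 6 of 8 against SpiB KO (43.0%). These shares count both directions, and without the block those of the double mutant were 48%, 36.3% and 30%. With the block, Ung (-0.20, adjusted p = 0.10), Apex1 (-0.26, adjusted p = 0.072), Rif1 (-0.22, adjusted p = 0.11) and Batf (-0.28, adjusted p = 0.055) passed as lower in SpiB KO cells, and Apex1 (-0.25, adjusted p = 0.042) and Msh6 (0.16, adjusted p = 0.080) were added in PU.1 cKO cells. The double mutant gained Ung (-0.19, adjusted p = 0.039), Trp53bp1 (-0.21, adjusted p = 0.026) and Batf (-0.18, adjusted p = 0.080) against PU.1 cKO, and Batf (-0.21, adjusted p = 0.058) and Msh6 (0.15, adjusted p = 0.088) against SpiB KO. The summed replication genes were at 8361 to 9545 CPM in control, 8351 to 8636 for PU.1 cKO, 7952 to 8230 for SpiB KO and 7688 to 7883 for the double mutant, with 0 of 25 DE in the double mutant and a median of -0.22. The 8 plasma cell genes were at 805 to 884 CPM in control, 1518 to 1614 for PU.1 cKO, 917 to 955 for SpiB KO and 1969 to 2083 CPM in the double mutant. They were thus higher in both genotypes without PU.1, as after CD40L+IL-4, while Batf was lower there than in control. T cell genes, with Cd3e, Cd4 and Cd8a at or near 0 in this culture, summed to 49.7 to 57.4 CPM in control and 159.5 to 175 CPM in the double mutant. B cell genes summed to 15673 to 17162 CPM in control and 20747 to 20786 CPM in the double mutant, with 4 of 10 DE and higher. The part of these in the values was not tested.

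**Figure D3:**
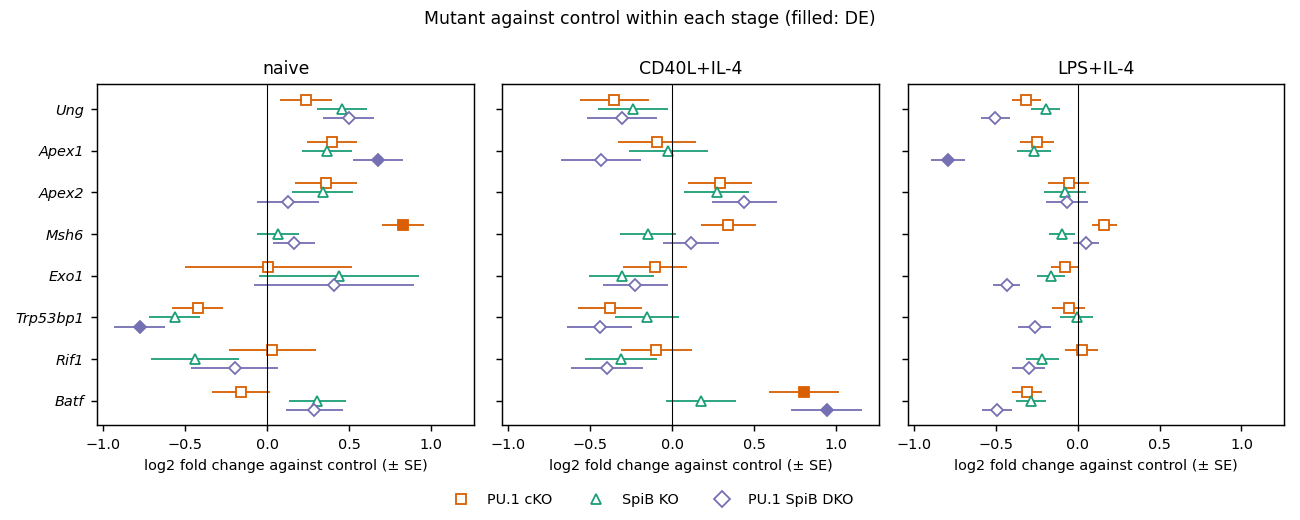
Log2 fold change against control of the 8 genes in PU.1 cKO, SpiB KO and PU.1 SpiB DKO cells in each stage, with SE as error bars and filled symbols for DE calls. All 3 mutants in a panel share the same 2 control libraries. Apex1 of PU.1 SpiB DKO goes from 0.68 in naive cells to -0.79 after LPS+IL-4, and Batf from 0.94 after CD40L+IL-4 to -0.49 after LPS+IL-4.

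The PU.1 SpiB DKO effect differed in sign between stages for Apex1, Ung and Batf. The difference was tested in the fit of all 24 libraries (adjusted p alone, no fold threshold). Naive double mutant cells kept part of the floxed Spi1 exon. The study reports it as fully excised after CD40L+IL-4 and deleted with similarly high efficiency after LPS+IL-4. In differences from naive cells, stage and the extent of PU.1 loss therefore cannot be told apart. Spi1 reads in the double mutant also differed between the cultures. They were at 31.3 and 24.9 CPM against 83.2 and 105 in control after CD40L+IL-4. After LPS+IL-4 they were at 59.0 and 54.4 CPM against 69.4 and 60.3. The part of this in the differences between cultures was not tested. The PU.1 SpiB DKO effect on Batf was lower in LPS+IL-4 than in CD40L+IL-4 cultures by 1.52 on the log2 scale (-1.52, SE 0.24, edgeR adjusted p = 0.00084) and than in naive cells by 0.84 (-0.84, SE 0.25, adjusted p = 0.028). That on Apex1 was lower than in naive cells by 1.09 after CD40L+IL-4 (-1.09, SE 0.28, edgeR adjusted p = 0.017) and by more after LPS+IL-4 (-1.53, SE 0.28, adjusted p = 0.00092). That on Ung was lower than in naive cells by 0.79 (-0.79, SE 0.24, adjusted p = 0.049) and 1.06 (-1.06, SE 0.24, adjusted p = 0.0053). Of the 8 genes 3 differed between CD40L+IL-4 and naive cells (16.8% of all genes), 4 between LPS+IL-4 and naive cells (29.6%) and 2 between the cultures (28.6%).

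The effect of losing PU.1 alone was compared in the same way after its values were seen. Batf again differed, with a PU.1 cKO effect higher in CD40L+IL-4 cultures than in naive cells by 0.98 (SE 0.26, edgeR adjusted p = 0.040) and lower in LPS+IL-4 than in CD40L+IL-4 cultures by 1.15 (-1.15, SE 0.24, adjusted p = 0.023). The Msh6 effect was lower after LPS+IL-4 than in naive cells by 0.69 (-0.69, SE 0.18, adjusted p = 0.042). These made 1 of 8 genes between CD40L+IL-4 and naive cells (9.05% of genes), 1 of 8 between LPS+IL-4 and naive cells (6.34%) and 1 of 8 between the cultures (3.09%). Stage and library preparation cannot be told apart here either, though each effect was taken within a stage.

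The wider pathway was followed in 48 further genes of switching, its repair steps and its transcription factors, 47 of which were tested. In the double mutant against control, 1 was DE and higher and 5 lower in naive cells, 3 higher and 8 lower after CD40L+IL-4, and 4 higher and 2 lower after LPS+IL-4, with medians of -0.06, -0.11 and -0.09. Of all genes tested, 7.39% were DE and higher and 6.70% lower in naive cells, 5.84% and 7.82% after CD40L+IL-4, and 8.76% and 4.81% after LPS+IL-4, with medians of 0.00, 0.00 and 0.01. Among the 47, Id2, an inhibitor of E proteins, rose by 1.60 (SE 0.21, edgeR adjusted p = 0.00081) in naive cells and by 1.25 (SE 0.29, adjusted p = 0.018) after CD40L+IL-4. Irf4, a transcription factor of activated and plasma cells, rose by 0.64 (SE 0.23, adjusted p = 0.089) after CD40L+IL-4 and by 0.71 (SE 0.10, adjusted p = 0.00093) after LPS+IL-4. Pax5, the B cell identity factor, fell by 0.94 after CD40L+IL-4 (-0.94, SE 0.19, edgeR adjusted p = 0.0078). It fell under 1.5-fold after LPS+IL-4 (-0.48, SE 0.13, adjusted p = 0.021). Lig1, a DNA ligase, fell by 1.17 in naive cells (-1.17, SE 0.27, adjusted p = 0.015). It fell in the cultures too, by 0.59 after CD40L+IL-4 (-0.59, SE 0.16, adjusted p = 0.036) and under 1.5-fold after LPS+IL-4 (-0.28, SE 0.08, adjusted p = 0.022). H2afx, the histone variant marked at breaks, rose by 0.83 after LPS+IL-4 (SE 0.16, edgeR adjusted p = 0.0039). In control cells 24 of the 47 were DE and higher after CD40L+IL-4 than in naive cells and 3 lower, and 30 were higher and 4 lower after LPS+IL-4, where 18.5% and 25.6% of all genes were higher and 16.9% and 21.9% lower.

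The genes whose mean log2 CPM over the 12 groups was most like each member were also ranked, among 8736 genes with a mean of at least 10 CPM. Among the closest were Mcm10 for Exo1 (Pearson r = 0.999), Gm13498 for Rif1 (0.998), Myef2 for Batf (0.994), Sars2 for Ung (0.992), Nup50 for Msh6 (0.991), Ddx11 for Trp53bp1 (0.989) and Mrpl22 for Apex2 (0.939). These are descriptions over 12 points that share 3 stages, so a shared difference between naive and cultured cells alone raises r. Some members overlap other genes in the RefSeq table (GRCm38.p6): Ung (chr5:114130366-114139321) shares 868 bases with Alkbh2, and Trp53bp1 (chr2:121194835-121296354) shares 3936 with Tubgcp4 and 6765 with Map1a. Apex2 (chrX:150426974-150588206) shares 68063 bases with Tmem29 and 23206 with Alas2, Msh6 (chr17:87975050-87990892) shares 34 with Fbxo11, and Exo1 (chr1:175880768-175911396) shares 107 with the small RNA gene Gm23805. Whether counting used strand is not given in the sources used here, so reads in shared sequence cannot be assigned with certainty. Batf (chr12:85686720-85709087), Apex1 (chr14:50924949-50927188) and Rif1 (chr2:52072815-52126769) overlap none in that table.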

How the data were processed

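The authors aligned the reads to GRCm38 (mm10) with Subread, counted uniquely mapped reads on RefSeq exons with featureCounts and deposited the raw counts of 27179 genes, with a quantile-normalized log2 RPKM per library. The libraries were made with a TruSeq RNA kit. The test was edgeR 4.0.16 (quasi-likelihood, TMM) in R 4.3.3 on the counts, for genes reaching 0.5 CPM in 2 or more libraries, in 1 fit of 8 libraries per stage or 1 fit of 24 for differences between stages. The deposited log2 RPKM served for the expression threshold and for levels between genes. Entries with a gene number but no symbol numbered 517 (0.162% of counts) and stayed in the totals.

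Each SE was taken as |log2 fold change| over the square root of F. Libraries held 9598674 counts or more, so that 1 CPM stood for about 10 reads or more and only Exo1 in naive cells was near that level. The study names biological replicates, 2 per group. No libraries held identical values, and replicates correlated at 0.984 to 0.994 in log2 CPM. Comparisons with control in a stage share the same 2 control libraries.

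The 8 genes, the gene lists, the rule for naming genes, the tests and the motifs were chosen with earlier results of these data known. The rule named the 8 genes, Spi1 and Spib, the 3 genes most like each member, and, from the wider list, genes DE in PU.1 SpiB DKO against control in both cultures or among the 3 largest changes of a stage. Some genes of that list and of the others are not reported here. Siglech, Ccr9, Cd79a, Cd3e, Cd4, Cd8a, Csf1r, Cd68 and Emr1 are markers from the lists, of which B cell genes summed to 15673 to 47537 CPM, 10 T cell genes to 49.7 to 615 CPM and 9 macrophage genes to 3.51 to 78.5 CPM.

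Deviations from the group means correlated at 0.386 to 0.514 between same-numbered LPS+IL-4 libraries, so these numbers were taken as pairing. The edgeR tests of each mutant against control within a stage were tried on simulated data with known fold changes in the double mutant. The other comparisons and settings were not tried in this way. Simulated libraries were drawn independently of each other, without the pairing of the LPS+IL-4 libraries, so the trial does not cover that feature. Its outcome is not reported here. Alternatives were limma 3.58.1 voom with quantile normalization, RLE scaling, DESeq2 1.42.0, no filter, only the compared groups, all 24 libraries, the replicate block, other thresholds and leaving out each library.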

Additional observations from a re-analysis of the deposited data

Results flagged for a closer look

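The following effects differed between stages by the test of the difference in the edgeR fit of all 24 libraries, which is what picked them out. For the PU.1 SpiB DKO effect on the log2 scale, CD40L+IL-4 minus naive was -0.79 for Ung, -1.09 for Apex1 and 0.67 for Batf. LPS+IL-4 minus naive was -1.06 for Ung, -1.53 for Apex1, -0.90 for Exo1 and -0.84 for Batf. LPS+IL-4 minus CD40L+IL-4 was -0.58 for Apex2 and -1.52 for Batf. For the PU.1 cKO effect, CD40L+IL-4 minus naive was 0.98 for Batf, LPS+IL-4 minus naive was -0.69 for Msh6, and LPS+IL-4 minus CD40L+IL-4 was -1.15 for Batf. The median of this difference over all genes was -0.05 for the PU.1 SpiB DKO effect between LPS+IL-4 and naive cells and within 0.03 of 0 for the others.

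The differences of Apex1 (both), of Ung and Batf between LPS+IL-4 and naive cells, of Batf between the cultures and of Msh6 passed without any 1 library. That of Batf in the PU.1 SpiB DKO effect between CD40L+IL-4 and naive cells (adjusted p = 0.12) was lost without any of 6 libraries (0.53 to 0.74, adjusted p from 0.16 to 0.30). That of Exo1 (adjusted p = 0.14) was lost under voom (-0.39, adjusted p = 0.66) and without any of 6 libraries, most of all naive Control replicate 2 (-0.45, adjusted p = 0.56), in which Exo1 had 11 reads. That of Apex2 (adjusted p = 0.10) was lost with no filter on low counts (adjusted p = 0.23) and without any of 5 libraries. That of Ung between CD40L+IL-4 and naive cells was lost without naive Control replicate 2 (-0.63, adjusted p = 0.19) or CD40L+IL-4 PU.1 SpiB DKO replicate 1 (-0.67, adjusted p = 0.15), and that of Batf in the PU.1 cKO effect between the same stages without naive PU.1 cKO replicate 1 (0.89, adjusted p = 0.16).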

How the results depend on the processing

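Values are counts of DE calls over the 8 genes, summed over 3 comparisons against control or 2 against the single mutants. A gene can therefore count more than once. Interactions are summed over 3 stages, and differences of the PU.1 SpiB DKO effect over 3 pairs of stages. The shares of all genes for the main calls are given with each comparison above. Against control, naive cells gave 3 calls (7 with no fold threshold, 1 to 7 when 1 library was left out), CD40L+IL-4 cultures 2 (1 to 5) and LPS+IL-4 cultures 1 (8 with no fold threshold, 1 to 2). Naive Control replicate 1 left out gave the 7, naive Control replicate 2 the 1, CD40L+IL-4 Control replicate 2 the 5, CD40L+IL-4 Control replicate 1 and PU.1 cKO replicate 2 the 1, and LPS+IL-4 Control replicate 1 the 2. PU.1 SpiB DKO against the single mutants gave 1 call in naive cells, 1 after CD40L+IL-4 (0 to 1 when 1 library was left out, 0 without SpiB KO replicate 1) and 0 after LPS+IL-4 (2 in the fit of all 24 libraries, 7 with no fold threshold, 0 to 2 when 1 library was left out, with 2 without PU.1 SpiB DKO replicate 2 and 1 without PU.1 cKO replicate 1). Of the 7, 3 were against PU.1 cKO and 4 against SpiB KO, where 36.3% and 30% of all genes passed by the adjusted p alone. Interactions numbered 0, and 1 (Msh6 in naive cells) under DESeq2, with no filter on low counts, with the replicate block, in the fit of all 24 libraries and, leaving out libraries, 0 to 1. The stage comparisons in control gave 6, 8 and 5 calls (6, 6 to 8 and 5 to 6 when 1 library was left out), and 9 differences of the PU.1 SpiB DKO effect between stages passed (6 to 10). The cause of these moves was not tested, except that dropping the fold threshold admits smaller changes.

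With the replicate block, the other counts of DE calls kept their values (3, 2 and 1 against control), apart from 10 in place of 9 differences of the PU.1 SpiB DKO effect between stages. The correlation of same-numbered libraries was 0.0918 to 0.250 in naive cells and -0.0702 to 0.266 after CD40L+IL-4, where pairing was not shown. By the adjusted p alone, the replicate block also brought under 0.15 in naive cells Apex1 in PU.1 cKO (0.40, adjusted p = 0.075) and SpiB KO (0.37, 0.11), Rif1 in SpiB KO (-0.44, 0.053), and, between the double mutant and PU.1 cKO, Trp53bp1 (-0.36, 0.069) and Batf (0.44, 0.095). After CD40L+IL-4 it did so for Ung in PU.1 cKO (-0.37, 0.13) and for Apex1 (-0.48, 0.12), Apex2 (0.44, 0.13) and Trp53bp1 (-0.43, 0.098) in PU.1 SpiB DKO against control. Of the member values that passed, 315 of 323 stayed past the threshold across the settings that keep all libraries and 175 of 204 when 1 was left out, and 0 changed sign. Among the settings that keep all libraries, those without the fold or RPKM threshold only relax the rule and cannot lose a value that passed. Depth limits Exo1 in naive cells.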
